A study of Mus musculus with 12 samples.

Results

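The 10 genes of the Wnt pathway described here were measured in mouse germ cells at E13.5 (embryonic day) and chosen by symbol. They are the ligands Wnt3, Wnt3a, Wnt5a, Wnt6 and Wnt10b, the acyltransferase Porcn, the transcription factors Lef1 and Tcf7, and the targets Axin2 and Sp5. All 10 were found among the 37991 gene rows of the count table, and 8 of them were among the 16708 genes with enough counts to be tested. Wnt3a and Wnt10b were too low for a test. The RNA-seq libraries came from primordial germ cells sorted from 12 embryos, with 1 library per embryo, all on a C57BL/6 background. The embryos were 3 female and 4 male controls (Ctrl) and 2 female and 3 male embryos with a conditional knockout of Ezh2 (CKO). Ezh2 is the main catalytic subunit of Polycomb repressive complex 2, which places the repressive histone mark H3K27me3. The submitters' column names mark the controls WT (wild type) and the CKO embryos KO. Beyond this, the labels used here do not name the genotype of the controls. Nor do they name the Cre that drives the deletion, the deleted exons, the litters or the sorting marker.

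Wnt proteins are secreted lipid-modified ligands. Porcn adds the lipid in the endoplasmic reticulum, Wls carries the ligand to the cell surface, and Frizzled and Lrp receptors pass the signal on. In the canonical branch β-catenin (Ctnnb1) is spared from its destruction complex and works with TCF/LEF factors on targets such as Axin2 and Sp5, and Axin2 in turn helps to destroy β-catenin. In the fetal gonad, Wnt4 and the R-spondin Rspo1 from the supporting cells promote the ovarian fate, Wnt3 is known for its part in germ cell specification, and Wnt5a with its receptor Ror2 for germ cell migration.

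Promoter sequences were looked up in RefSeq on GRCm38.p6, where windows from 250 bases before to 50 after the start site were given for 8 of the 10 genes, in 12 windows. Porcn and Wnt5a were not matched. The TCF/LEF core motif was searched as CTTTGAT or CTTTGAA on both strands, 2 motifs that do not overlap each other. It occurred in 1 of the 12 windows, that of Sp5, and in 8.65% of all 32851 windows of this length. The Sp5 match lay on the + strand, 104 bases before the start. The CpG count was above the median of all windows, which was 7 with quartiles of 3 and 20, in 10 of the 12. CpG-dense promoters are where Polycomb repressive complex 2 is mostly found in mammals, but no histone mark was measured in these libraries. The 250 bases before the start are shown for 3 genes. Sp5 (chr2:70474673-70474922, + strand) is shown for its motif, which is in capitals. Axin2 (chr11:108920099-108920348, + strand) and Wnt3 (chr11:103773925-103774174, + strand), whose levels differed between the sexes in opposite directions, are shown with each CG in capitals.
Sp5: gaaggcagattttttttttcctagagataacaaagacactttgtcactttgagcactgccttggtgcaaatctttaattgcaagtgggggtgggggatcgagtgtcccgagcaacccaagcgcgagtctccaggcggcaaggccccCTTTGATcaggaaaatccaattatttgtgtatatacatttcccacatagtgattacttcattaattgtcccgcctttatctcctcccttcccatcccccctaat
Axin2: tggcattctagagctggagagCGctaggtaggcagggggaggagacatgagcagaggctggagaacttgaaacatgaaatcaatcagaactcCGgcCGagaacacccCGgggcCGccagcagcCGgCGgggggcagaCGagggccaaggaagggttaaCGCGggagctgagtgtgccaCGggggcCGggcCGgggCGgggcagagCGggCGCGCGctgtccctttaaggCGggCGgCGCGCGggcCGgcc
Wnt3: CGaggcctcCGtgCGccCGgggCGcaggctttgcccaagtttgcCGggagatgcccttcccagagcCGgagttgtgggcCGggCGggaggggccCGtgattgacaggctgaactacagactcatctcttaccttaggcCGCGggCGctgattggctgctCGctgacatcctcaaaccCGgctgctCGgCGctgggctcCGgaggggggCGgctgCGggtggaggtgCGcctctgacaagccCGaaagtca
The stretch of Axin2 holds 24 CG and that of Wnt3 holds 22, while the 300-base window of Sp5 holds 6. These matches describe the letters of the windows and are no measure of binding.

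The libraries held between 26180685 and 35299206 counts. Levels are given in CPM, the usual unit of counts scaled to library size, here after TMM scaling (trimmed mean of M values). Pairs of libraries in the same group differed beyond counting noise throughout (chi-square per gene 18.6 to 74.2). Summed over 10 germ cell markers, the level was 6199 to 6865 CPM in every library. Markers of gonadal somatic cells were low: 8 Sertoli cell markers summed to 11.7 to 54.4 CPM, 6 pregranulosa cell markers to 4.33 to 28.4 CPM and 7 interstitial stroma markers to 2.50 to 32.5 CPM. The 6 mesonephric epithelium markers, which include Epcam, a gene that germ cells also express, summed to 228 to 297 CPM in females and 492 to 608 CPM in males. The part of Epcam in these sums was not tested. Ezh2, the deleted gene, stood at 154 ± 10.9 CPM (SD, n = 3) in female Ctrl, 95.6 ± 15.7 CPM (n = 2) in female CKO, 122 ± 19.9 CPM (n = 4) in male Ctrl and 84.4 ± 1.79 CPM (n = 3) in male CKO. Its log2 fold change was -0.68 in females (edgeR adjusted p = 0.02) and -0.53 in males (adjusted p = 0.0527), and -0.61 over both sexes (adjusted p = 0.0022). Leaving out female Ctrl 3 or female CKO 1 took the female value past the threshold (edgeR adjusted p = 0.0779 and 0.165). The counts cover the whole gene, so they do not show how much of the deleted part was left.

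Porcn, the enzyme that adds the lipid to Wnt ligands, was the member whose transcript changed with Ezh2. It was lower in CKO than in Ctrl germ cells in both sexes, by 1.85-fold over both, and it was 10.2-fold higher in female than in male controls. In females the Ctrl libraries stood at 136, 136 and 101 CPM and the CKO libraries at 69.4 and 82.2 CPM. Every female CKO embryo was below every female control, though the female change was not called on its own (edgeR adjusted p = 0.128). How many of all tested genes separate groups this small was not counted, here or for the genes below. In males the Ctrl libraries stood at 9.84, 19.0, 10.6 and 9.46 CPM and the CKO libraries at 4.84, 5.34 and 7.40 CPM. Again the groups did not overlap, although the second male control was far above the other 3.

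Over both sexes the log2 fold change of Porcn was -0.88 (SE 0.18, 95% interval -1.28 to -0.49, edgeR adjusted p = 0.00724). The call held in all 17 alternative analyses (adjusted p between 9.91e-05 and 0.0397). Of all tested genes, 7.87% were called lower in this comparison and 6.85% higher (14.7% in either direction), and Porcn was the 1 called among the 8 tested members. In males alone the log2 fold change was -1.06 (SE 0.24, interval -1.58 to -0.53, edgeR adjusted p = 0.0469), a 2.08-fold lower level, where 1.7% of all genes were called, 1.2% higher and 0.497% lower. This male call lay at the edge of the threshold: it held in 3 of 13 alternatives. It was lost without male Ctrl 3 (edgeR adjusted p = 0.0767), male Ctrl 4 (0.0532), male CKO 1 (0.122), male CKO 2 (0.191) or male CKO 3 (0.0838). Without the high male Ctrl 2 it held, at a log2 fold change of -0.77 and an adjusted p of 0.0334. In females alone the log2 fold change was -0.71 (SE 0.27, interval -1.29 to -0.13) and was not called (edgeR adjusted p = 0.128). The difference between the female and the male effect was 0.34 (interval -0.42 to 1.11, edgeR adjusted p = 0.812), so the data allow effects of equal size and also a marked difference. In sorted cells measured in bulk, fewer cells with the transcript and less of it per cell cannot be told apart.

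**Figure D1:**
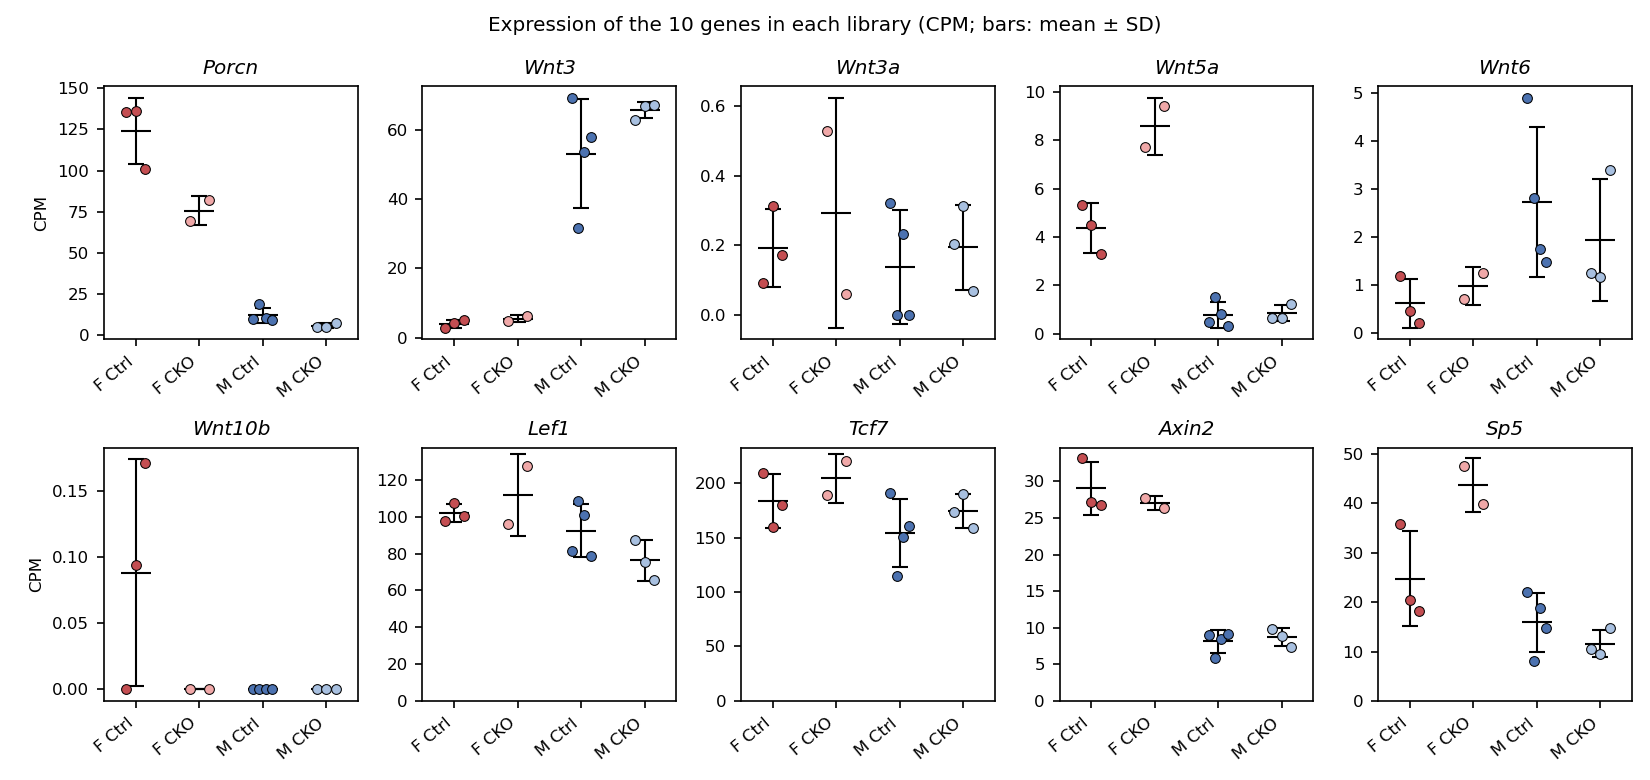
Level in CPM (counts scaled to TMM-adjusted library size) of the 10 genes, 1 panel per gene, in female Ctrl, female CKO, male Ctrl and male CKO; each point is 1 embryo, and bars give the mean and SD. Porcn runs from 101 to 136 CPM in female Ctrl, 69.4 to 82.2 in female CKO, 9.46 to 19.0 in male Ctrl and 4.84 to 7.40 in male CKO, and Wnt3 shows the reverse order of the sexes.

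The order of the groups for Porcn was female Ctrl, female CKO, male Ctrl and male CKO, with no overlap between any neighbours in this order. Porcn lies on the X chromosome, so the sex difference was set beside the other X-linked genes. Among control germ cells the log2 fold change of Porcn, female against male, was 3.35 (SE 0.23, edgeR adjusted p = 4.39e-07). The median over the 671 tested X-linked genes was 0.41, and 21 of them were above Porcn. Of these X-linked genes 243 were called higher in females and 48 lower. Wls and Notum, which carry Wnt ligands to the cell surface and remove their lipid again, complete this step of the pathway. Notum was higher in female controls at 37.1 ± 4.40 CPM (n = 3) against 7.89 ± 2.14 CPM (n = 4) in males (log2 fold change 2.24, edgeR adjusted p = 2.1e-06). Wls was near the low end in every group, with means of 1.29, 3.39, 0.725 and 0.608 CPM in female Ctrl, female CKO, male Ctrl and male CKO. Wls was not called in these comparisons. Its female CKO effect was 1.39 (interval -0.05 to 2.83, edgeR adjusted p = 0.233), and was called in 1 of 11 alternatives, the fit on only the groups compared (adjusted p = 0.0332).

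The 3 tested ligands, Wnt3, Wnt5a and Wnt6, were called between the sexes and not between the genotypes. In control germ cells 5 of the 8 tested members differed between the sexes, 3 higher in females and 2 higher in males, where 39.5% of all tested genes were called (20.1% higher in females, 19.4% lower). Wnt3 and Wnt6 were the ligands called higher in males and Wnt5a the ligand called higher in females. Per kilobase of exon, Wnt3 in male Ctrl stood at 17.3 ± 5.11 CPM (n = 4) and Wnt5a in female Ctrl at 0.559 ± 0.130 CPM (n = 3), where Wnt3 itself still stood at 1.33 ± 0.368 CPM (n = 3). Wnt3 thus had the highest mean level per length of the 5 ligands in both control groups.

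Wnt3 stood at 2.86, 4.35 and 5.08 CPM in female Ctrl and at 69.3, 31.7, 53.6 and 57.8 CPM in male Ctrl. Every male was above every female, with the second male control the lowest of the males. Wnt3 was 13.0-fold lower in female controls (log2 change -3.70 ± 0.27 SE, edgeR adjusted p = 5.9e-07). In CKO embryos it stood at 4.86 and 6.29 CPM in females and at 62.9, 66.9 and 67.1 CPM in males. In both sexes the CKO range overlapped that of the controls. Its CKO log2 fold changes were 0.45 in females (interval -0.18 to 1.08, edgeR adjusted p = 0.385) and 0.30 in males (-0.18 to 0.79, adjusted p = 0.54). The neighbour of Wnt3 on chromosome 11, Wnt9b, was much lower than it and also higher in males. Wnt9b stood at 0.160 ± 0.123 CPM (n = 3) in female Ctrl and 1.28 ± 0.379 CPM (n = 4) in male Ctrl (log2 fold change -2.98, edgeR adjusted p = 0.00296).

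Wnt5a, a ligand best known for signalling without β-catenin, had the opposite order. It stood at 5.31, 4.50 and 3.29 CPM in female Ctrl, at 7.73 and 9.42 CPM in female CKO, at 0.467, 1.53, 0.827 and 0.303 CPM in male Ctrl and at 0.643, 0.659 and 1.24 CPM in male CKO. Both female groups were above all males, and both female CKO embryos were above all female controls. Between controls Wnt5a was 5.64-fold higher in females (log2 change 2.50 ± 0.44 SE, edgeR adjusted p = 0.000641). Its higher level in female CKO was not called, with a log2 fold change of 0.97 (interval -0.08 to 2.02, edgeR adjusted p = 0.253), and that in males was 0.13 (-0.88 to 1.14, adjusted p = 0.927). Ror2, its receptor, was also higher in female controls, at 43.9 ± 12.1 CPM (n = 3) against 9.01 ± 3.51 CPM (n = 4) in males (log2 fold change 2.29, edgeR adjusted p = 2.62e-05). The libraries do not mark strand, and Wnt5a shares 358 exonic bases with an antisense gene, Gm2670, that has no row in the table.

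Wnt6 was low in all groups. It stood at 1.20, 0.469 and 0.206 CPM in female Ctrl, 0.703 and 1.26 CPM in female CKO, 4.91, 2.81, 1.75 and 1.48 CPM in male Ctrl and 1.25, 1.18 and 3.41 CPM in male CKO. Every male control was above every female control, while the lowest male CKO embryos were within the female range. Wnt6 was 4.34-fold lower in female than in male controls (log2 value -2.12 with an SE of 0.63 and an edgeR adjusted p of 0.0161). This call was lost without female Ctrl 2 (log2 fold change -1.96, adjusted p = 0.0641) or female Ctrl 3 (-1.70, adjusted p = 0.0638). The summed markers of Sertoli cells, the supporting cells of the testis, were also higher in males. The libraries with the most Wnt6, male Ctrl 1 and male CKO 3, had the highest Sertoli sums, 54.4 and 41.8 CPM. Male CKO 1 had the next highest sum, 35.8 CPM, with Wnt6 at 1.25 CPM, and male Ctrl 2 had the next highest Wnt6 level, 2.81 CPM, with a sum of 23.1 CPM. All 8 Sertoli markers had counts in every male library and 4 to 6 of them in the female ones. Amh, a hormone gene that defines these cells, had 0 counts in the 5 female libraries and 183 and 125 counts in male Ctrl 1 and male CKO 3. The Sertoli sums were 11.7 to 15.4 CPM in female Ctrl and 18.9 to 54.4 CPM in male Ctrl. Those of female Ctrl were mostly from 1 marker, Aard. Aard stood at 12.3, 13.6 and 10.6 CPM in female Ctrl and 19.9, 8.50, 7.87 and 9.73 CPM in male Ctrl. The part of the Sertoli sums in the Wnt6 difference was not tested. For Wnt5a, the 6 pregranulosa markers, of the supporting cells of the ovary, summed to 15.8 to 28.4 CPM in female Ctrl and 5.45 to 13.52 CPM in male Ctrl. Their part was not tested either. Irx3 made up a large share of these female Ctrl sums, at 12.9, 7.01 and 7.75 CPM. Foxl2, which defines these cells, had 3 to 36 counts per female Ctrl library and 5, 0, 0 and 0 counts in male Ctrl. In female CKO, where Wnt5a was highest, Foxl2 had 6 and 3 counts.

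**Figure D2:**
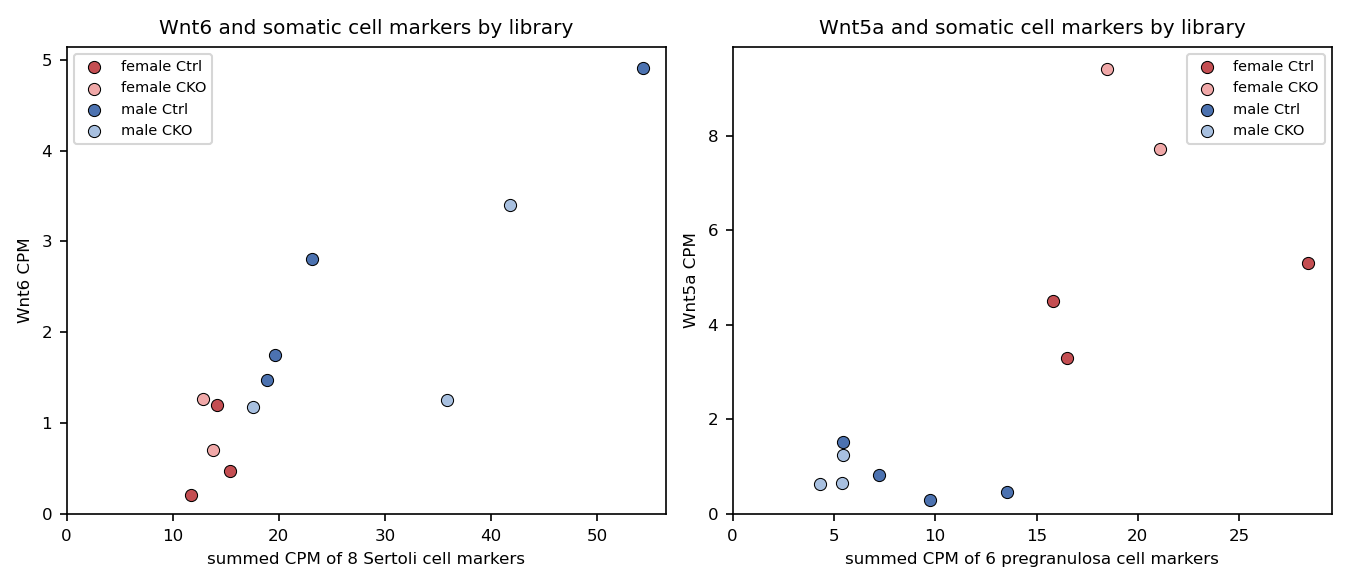
Left, Wnt6 level (CPM) against the summed CPM of 8 Sertoli cell markers; right, Wnt5a level (CPM) against the summed CPM of 6 pregranulosa cell markers; each point is 1 of the 12 libraries, coloured by group. Male Ctrl 1 has the highest Sertoli sum, 54.4 CPM, and the highest Wnt6 level, 4.91 CPM, and all female libraries lie to the right of all male ones for pregranulosa markers.

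Wnt3a and Wnt10b, both strong canonical ligands elsewhere in the embryo, were close to absent from the counts. Wnt3a had 0 to 18 counts per library, which is 0 to 0.527 CPM, and its 4 groups overlapped. Wnt10b had 8 counts in all, 3 and 5 of them in female Ctrl 2 and 3. The groups with 0 counts of Wnt10b allow levels of up to 0.0445 CPM in female CKO, 0.0261 in male Ctrl and 0.0343 in male CKO, a floor of 3 counts over the group that covers counting error only. The Wnt genes next to other members on their chromosomes were also low. Wnt1 and Wnt10a, beside Wnt10b and Wnt6, had mean levels of at most 0.0177 and 0.0146 CPM in any group. Wnt9a, beside Wnt3a, stood at 2.23 ± 0.440 CPM (n = 3) in female Ctrl and 0.614 ± 0.336 CPM (n = 4) in male Ctrl, a called difference (log2 fold change 1.86, edgeR adjusted p = 0.00478). In female CKO it stood at 4.86 ± 0.199 CPM (n = 2), which was not called (log2 fold change 1.12, edgeR adjusted p = 0.188).

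Tcf7 and Lef1, the members that are nuclear partners of β-catenin, showed no called difference in any comparison. Tcf7 stood at 209, 160.1 and 179.9 CPM in female Ctrl, 189 and 220.4 CPM in female CKO, 191, 114, 150.4 and 160.2 CPM in male Ctrl and 173, 190.2 and 159 CPM in male CKO. All 4 groups overlapped. Per kilobase it was the most abundant of the 10 genes in every group, from 58.6 ± 11.9 CPM (n = 4) in male Ctrl to 77.9 ± 8.54 CPM (n = 2) in female CKO. Its CKO effects were 0.16 in females (interval -0.22 to 0.54, edgeR adjusted p = 0.632) and 0.18 in males (-0.14 to 0.50, adjusted p = 0.595), and the sex difference of controls was 0.25 (-0.07 to 0.57, adjusted p = 0.2).

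Lef1 stood at 97.6, 107 and 101 CPM in female Ctrl, 96.1 and 128 CPM in female CKO, 81.6, 108, 101 and 78.8 CPM in male Ctrl and 87.5, 75.6 and 65.6 CPM in male CKO. The male CKO embryos were the lowest group but overlapped the male controls. The male CKO effect on Lef1 was -0.28 (interval -0.58 to 0.03, edgeR adjusted p = 0.345), the female one 0.14 (-0.22 to 0.49, adjusted p = 0.672), and the sex difference of controls 0.14 (-0.16 to 0.44, adjusted p = 0.458). Ctnnb1 itself, the partner of both, had 655 ± 38.3 CPM (n = 3), 509 ± 60.6 (n = 2), 642 ± 92.5 (n = 4) and 565 ± 82.7 CPM (n = 3) in female Ctrl, female CKO, male Ctrl and male CKO, with no called difference. Lef1 shares 1208 exonic bases with an antisense gene, Gm43352, that has no row in the table.

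The targets split. Axin2, a direct target and brake of the canonical pathway, was 3.56-fold higher in female controls than in male controls, while its CKO values were close to those of Ctrl in each sex. It stood at 33.3, 27.1 and 26.8 CPM in female Ctrl, 27.7 and 26.4 CPM in female CKO, 9.08, 5.86, 8.50 and 9.16 CPM in male Ctrl and 9.85, 8.91 and 7.40 CPM in male CKO. The sexes were far apart, and within each sex CKO and Ctrl overlapped. The sex difference was 1.83 (SE 0.17, interval 1.46 to 2.21, edgeR adjusted p = 5.14e-06). The CKO effects were -0.10 in females (interval -0.55 to 0.34, edgeR adjusted p = 0.808) and 0.10 in males (-0.28 to 0.48, adjusted p = 0.841). Axin2 shares 209 exonic bases with the antisense gene Gm11670, which had 4 counts in all libraries together.

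Sp5, a transcription factor induced by Wnt signalling, stood at 35.8, 20.5 and 18.2 CPM in female Ctrl, 47.7 and 39.9 CPM in female CKO, 22.1, 8.09, 18.7 and 14.8 CPM in male Ctrl and 10.6, 9.54 and 14.7 CPM in male CKO. Both female CKO embryos were above all other embryos, and the male groups overlapped. Its effects had opposite signs in the sexes, 0.82 in females (interval 0.05 to 1.58, edgeR adjusted p = 0.182) and -0.46 in males (-1.12 to 0.21, adjusted p = 0.502), and neither was called. The difference between these effects was 1.28 (interval 0.26 to 2.29, edgeR adjusted p = 0.517). The sex difference of controls, 0.64 (interval -0.01 to 1.28, edgeR adjusted p = 0.112), was called only without male Ctrl 1 (adjusted p = 0.0459).

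**Figure D3:**
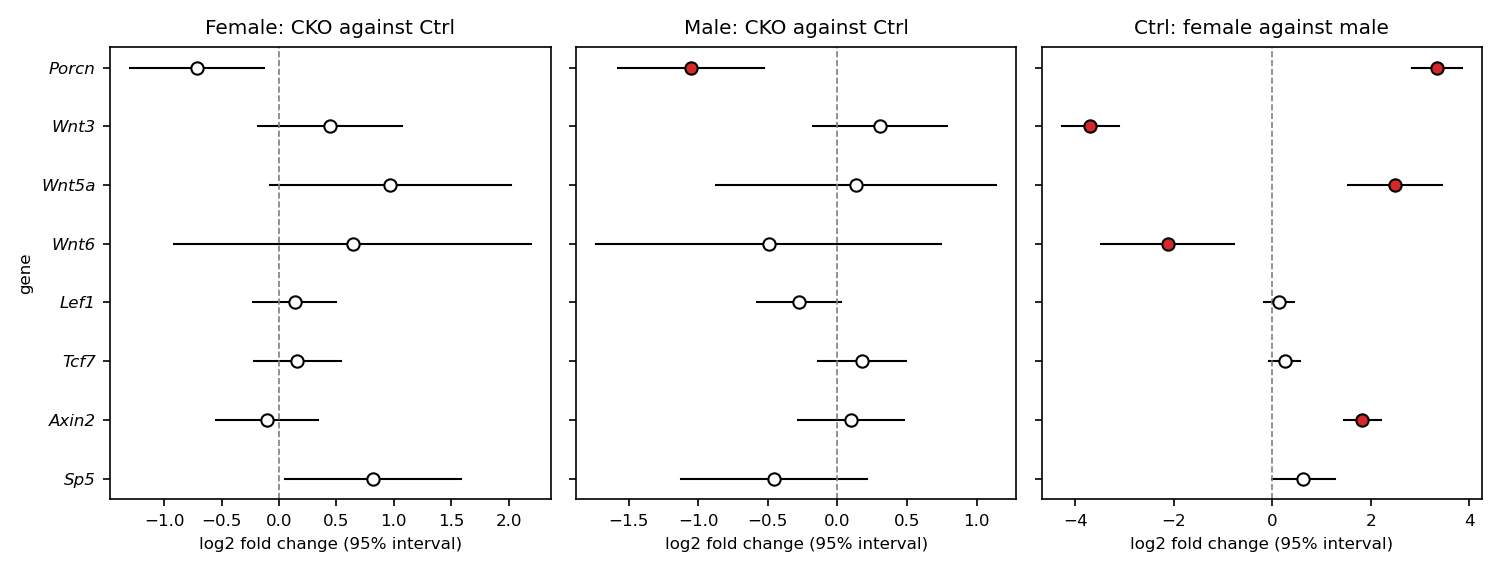
Log2 fold changes of the 8 tested members with 95% intervals for CKO against Ctrl in females, CKO against Ctrl in males, and female against male controls; filled points passed an edgeR adjusted p of 0.05, and the axis range differs by panel. In the CKO panels only Porcn in males, at -1.06, is filled, and in the right panel Porcn, Wnt3, Wnt5a, Wnt6 and Axin2 are filled.

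Counted over the 8 tested members, the CKO comparison called 0 in females, where 7.17% of all genes were called, 3.01% higher and 4.16% lower (2 members had an unadjusted p under 0.05, and DESeq2 called 0). In males it called 1, Porcn. For the difference of the CKO effects between the sexes, 0 of 8 members and 0% of all genes were called in edgeR. By unadjusted p under 0.05, 1 member and 1401 genes passed, and DESeq2 called 0 members and 61 genes. The female CKO, male CKO and sex comparisons share control libraries, so their values are given side by side only. The median log2 fold change of the members was 0.30 in the female and -0.09 in the male CKO comparison, beside 0.00 and -0.02 over all genes.

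Per kilobase of exon, the order of the members in female Ctrl was Tcf7 (69.8 ± 9.46 CPM), Porcn (41.4 ± 6.67), Sp5 (11.8 ± 4.55), Lef1 (11.6 ± 0.560), Axin2 (5.28 ± 0.661), Wnt3 (1.33 ± 0.368), Wnt5a (0.559 ± 0.130), Wnt6 (0.285 ± 0.234), Wnt3a (0.0696 ± 0.0405) and Wnt10b (0.0260 ± 0.0253). Neighbours whose mean ± SD overlapped were Sp5 and Lef1, Wnt5a and Wnt6, Wnt6 and Wnt3a, and Wnt3a and Wnt10b. In male Ctrl the order was Tcf7 (58.6 ± 11.9 CPM), Wnt3 (17.3 ± 5.11), Lef1 (10.5 ± 1.65), Sp5 (7.59 ± 2.87), Porcn (4.07 ± 1.51), Axin2 (1.48 ± 0.283), Wnt6 (1.25 ± 0.710), Wnt5a (0.0998 ± 0.0694) and Wnt3a (0.0501 ± 0.0593), with Wnt10b at 0. Here the mean ± SD overlapped between Wnt3 and Lef1, Lef1 and Sp5, Sp5 and Porcn, Axin2 and Wnt6, Wnt5a and Wnt3a, and Wnt3a and Wnt10b. The places of Wnt3 and Porcn among their neighbours in males are therefore not settled.

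The wider pathway was read from 9 lists with 118 genes, 105 of them tested, that hold the members too. Between the sexes 37 of the 105 were higher in female controls and 16 lower, or 50.5%, beside 39.5% of all genes. Of 12 tested ligands 8 were higher in females and 3, all named above (Wnt3, Wnt6 and Wnt9b), were higher in males, with a median of 2.31 beside 0.00 over all genes. Wnt2b stood at 5.42 ± 0.980 CPM (n = 3) against 0.448 ± 0.0818 CPM (n = 4), and Wnt5b at 6.41 ± 1.72 against 1.33 ± 0.385 CPM (log2 fold changes 3.58 and 2.27). The pregranulosa marker sums were also higher in female Ctrl (15.8 to 28.4 CPM) than in male Ctrl (5.45 to 13.52 CPM). The female levels of Wnt2b and Wnt5b lay below these sums. The part of such cells in the ligand differences was not tested. Of 24 tested canonical targets 11 were higher in females and 1 lower, with a median of 1.12. Cdx2, a homeobox factor of the posterior embryo, stood at 48.8 ± 4.15 CPM (n = 3) in female Ctrl and 0.371 ± 0.137 CPM (n = 4) in male Ctrl. Nkd1, which like Axin2 is a feedback inhibitor, stood at 33.1 ± 9.82 against 8.30 ± 1.11 CPM, and Id2, an inhibitor of helix-loop-helix factors, at 104 ± 12.8 against 10.6 ± 2.63 CPM. Their edgeR adjusted p-values were 5.53e-08, 4.31e-06 and 5.53e-08.

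Between the sexes, receptors were called higher in 5 and lower in 2 of 16 cases (43.8%, beside 39.5% of all genes). Fzd3 (log2 fold change 1.00), Lrp6 (0.57) and Fzd4 (2.38) were higher in female controls beside Ror2, with edgeR adjusted p-values of 1.13e-05, 0.00179 and 0.00238. Fzd4 was low, at means of 1.17 CPM in female and 0.225 CPM in male controls. In the R-spondin axis, which amplifies Wnt signals at the cell surface, 3 of 9 were higher and 1 lower (44.4%). Lgr4, a receptor of R-spondins, was the lower 1, at 79.9 ± 13.9 CPM (n = 3) in females against 254 ± 46.3 CPM (n = 4) in males (log2 fold change -1.67, edgeR adjusted p = 3.8e-06). Lgr6 was higher (2.62, edgeR adjusted p = 0.00102), at low means of 1.98 CPM in females and 0.313 CPM in males. Secreted inhibitors went both ways, with 3 of 11 higher and 5 lower (72.7%). Dkk1, which blocks Lrp6 and is also a target, was higher in females (2.04, edgeR adjusted p = 0.000623), and Sfrp1 and Wif1, which bind Wnt ligands, were lower (-1.27 and -1.76, adjusted p = 0.000275 and 0.000946).

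Of 16 genes of the signalosome and destruction complex, 1 was higher, Axin2, and 3 were lower (25%, beside 39.5% of all genes). Among the lower ones, the Dishevelled gene Dvl2 stood at 65.4 ± 3.34 CPM (n = 3) in females and 145 ± 12.5 CPM (n = 4) in males (log2 fold change -1.14, edgeR adjusted p = 4e-06). Of 13 nuclear effectors 4 were higher and 1 lower (38.5%). Ctnnbip1, which keeps β-catenin off TCF factors, was higher in females (1.22, edgeR adjusted p = 2.16e-06), and the co-repressor Tle4 was lower (-0.52, adjusted p = 0.000481). Of 10 planar polarity genes 3 were higher and 0 lower (30%), with Vangl1 at 32.8 ± 2.36 CPM (n = 3) against 10.1 ± 5.07 CPM (n = 4) (log2 fold change 1.70, edgeR adjusted p = 0.000736).

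**Figure D4:**
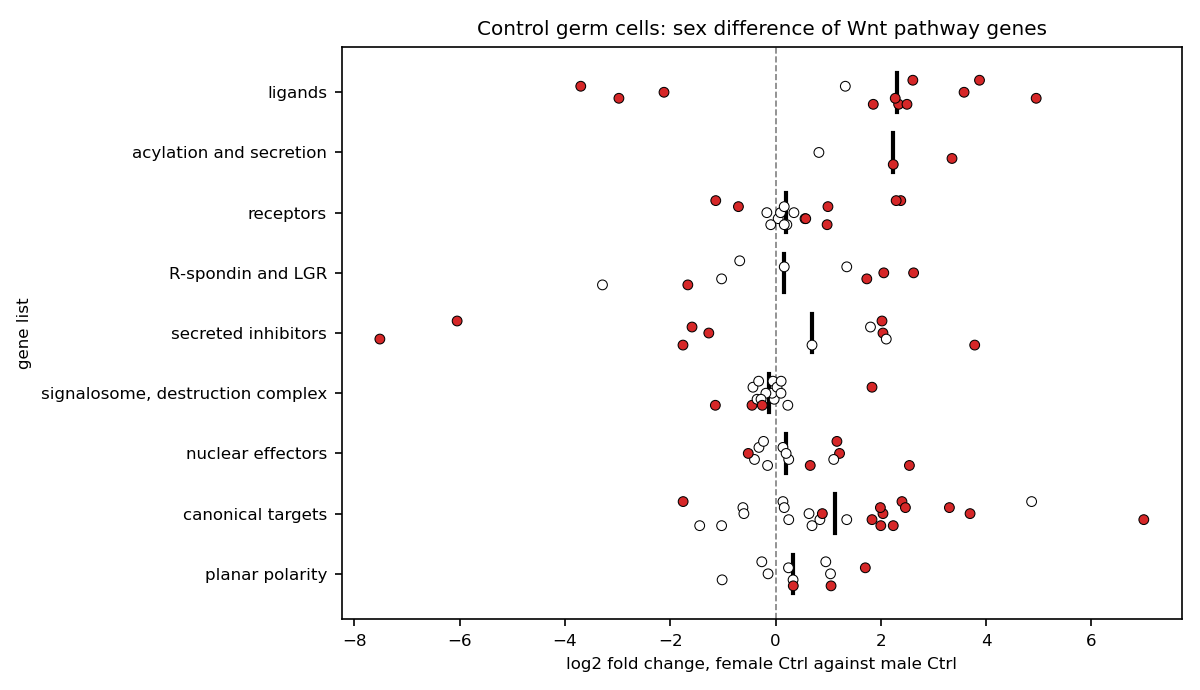
Log2 fold change between female and male controls of each tested gene in the 9 Wnt pathway lists; 1 row per list, filled points passed an edgeR adjusted p of 0.05, and vertical bars mark list medians. Ligands (median 2.31) and canonical targets (median 1.12) lie mostly to the right, and genes of the signalosome and destruction complex lie near 0.

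The share of pathway genes called in CKO germ cells was above that of all genes in each CKO comparison, a difference that was not tested. Of the 105 tested genes 3 were higher and 7 lower in female CKO (9.52%, beside 7.17% of all genes), and 3 higher and 1 lower in male CKO (3.81%, beside 1.7%). Over both sexes 10 were higher and 14 lower (22.9%, beside 14.7%). No ligand was called in any of these comparisons: edgeR called 0 of 12 in females, males and over both, DESeq2 called 0 each time, and 1, 0 and 2 had an unadjusted p under 0.05. The fitted value was above 0 for 11 of the 12 ligands in females and 10 in males. Their medians were 0.65 and 0.36, beside -0.0036 and -0.018 over all genes. The share of all tested genes fitted above 0 was not counted. Low ligands can pass the count filter through their higher group, and these values describe single genes that did not pass.

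Of the cyclin D genes, targets that drive the cell cycle, Ccnd1 was called higher in male CKO and Ccnd2 in female CKO. Over both sexes each was called higher, Ccnd1 at an edgeR adjusted p of 0.000713 and Ccnd2 at 0.00334, in all 17 alternatives. In edgeR the CKO effect of neither gene was called different between the sexes. DESeq2 called 2 of the 24 tested canonical targets there, and whether the cyclin D genes are among them was not recorded. Ccnd1 stood at 5.05, 1.16, 2.91 and 2.73 CPM in male Ctrl and at 14.4, 15.8 and 25.5 CPM in male CKO. All male CKO embryos were above all male controls. The male log2 fold change of Ccnd1 was 2.62 (SE 0.35, edgeR adjusted p = 0.004) and held in all 13 alternatives. In females it stood at 45.2, 37.7 and 34.1 CPM in Ctrl and 118 and 70.1 CPM in CKO, which was not called (1.27, edgeR adjusted p = 0.0613). Ccnd2 stood at 4.36, 2.06 and 2.54 CPM in female Ctrl and 17.8 and 11.8 CPM in female CKO. Both CKO embryos were well above the controls (log2 change 2.30 ± 0.37 SE, edgeR adjusted p = 0.00533), and the male value was 0.40 (adjusted p = 0.563). In the same comparisons the 6 endothelium markers summed to 8.89 to 11.3 CPM in female Ctrl, 14.7 to 16.5 in female CKO, 10.3 to 17.7 in male Ctrl and 17.0 to 20.2 in male CKO, and the 7 stroma markers to 2.50 to 11.3, 11.2 to 32.5, 5.89 to 16.3 and 4.61 to 24.98 CPM. Their part in the CKO differences was not tested. Nkd1 was higher over both sexes (0.68, edgeR adjusted p = 0.00754), while its fellow feedback gene Axin2 had -0.0042 there (adjusted p = 0.99).

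Secreted inhibitors were the list with the highest median, 2.28 in females and 0.56 in males. Of the 11 tested, 1 was called in each sex (9.09%, beside 7.17% of all genes in females and 1.7% in males). Over both sexes 3 were higher and 1 lower (36.4%, beside 14.7% of all genes). The higher ones were Wif1, Dkk1 and Dkk2. Dkk2 was very low, at means of 0.103 CPM in female Ctrl and 0.0309 CPM in male Ctrl. In female CKO it stood at 0.547 CPM and in male CKO at 0.332 CPM, and its call held in 11 of 17 alternatives. Genes this low can pass the count filter through their higher group, which can raise the median of a list. Wif1 stood at 1.41, 0.844 and 1.24 CPM in female Ctrl and 5.39 and 6.17 CPM in female CKO. Both CKO embryos were above the controls (log2 change 2.31 ± 0.37 SE, edgeR adjusted p = 0.00501). In males Wif1 was at 3.94 ± 1.44 CPM (n = 4) in Ctrl and 7.94 ± 0.815 CPM (n = 3) in CKO (1.01, edgeR adjusted p = 0.105). Dkk1 stood at 0.642, 1.11, 1.09 and 0.644 CPM in male Ctrl and 2.88, 4.33 and 2.58 CPM in male CKO. The male groups did not overlap (log2 change 1.90 ± 0.36 SE, edgeR adjusted p = 0.0235), but the call was lost without male Ctrl 3 (adjusted p = 0.0514), male Ctrl 4 (0.058), male CKO 2 (0.134) or male CKO 3 (0.0608), and with only the groups compared (0.0534). Its female value was 0.23 (edgeR adjusted p = 0.783).

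Over both sexes 2 of 16 receptors were higher and 1 lower (18.8%, beside 14.7% of all genes). Fzd4 was higher, at a log2 fold change of 1.76 (edgeR adjusted p = 0.00804, called in all 17 alternatives). Its level was low, with means of 1.17, 3.31, 0.225 and 0.906 CPM in female Ctrl, female CKO, male Ctrl and male CKO. Ryk was also higher, at 0.26 (edgeR adjusted p = 0.0407, called in 7 of 17, with adjusted p between 0.0102 and 0.125). The Ryk call was lost in 9 of the 12 analyses that left out a library, and held without female Ctrl 2, male Ctrl 1 or male Ctrl 2. Fzd7, a Frizzled receptor of stem cells, stood at 89.8, 70.6 and 62.0 CPM in female Ctrl and 35.7 and 40.8 CPM in female CKO. The female groups were well apart (log2 change -0.95 ± 0.19 SE, edgeR adjusted p = 0.0114), and the call was lost without female CKO 1 (adjusted p = 0.0913) or female CKO 2 (0.0530). Over both sexes Fzd7 was at -0.71 (edgeR adjusted p = 0.00251), a call that held in all 17 alternatives. Scrib, a polarity scaffold, stood at 101 ± 8.53 CPM (n = 3) in female Ctrl and 57.3 ± 4.57 CPM (n = 2) in female CKO (log2 fold change -0.82, edgeR adjusted p = 0.00942), lost without female CKO 2 (adjusted p = 0.0880). Over both sexes it was at -0.60 (edgeR adjusted p = 0.0024) in all 17 alternatives called. Of 16 genes of the signalosome and destruction complex 6 were lower over both sexes and 0 higher (37.5%, beside 14.7% of all genes). Among them Tnks2, a tankyrase that marks Axin proteins for destruction, had a log2 fold change of -0.35 (edgeR adjusted p = 0.0087) and was called in all 17 alternatives. Ctnnbip1 was higher and Pygo2, a co-activator of β-catenin, lower over both sexes (0.40 and -0.35, edgeR adjusted p = 0.00636 and 0.00724).

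**Figure D5:**
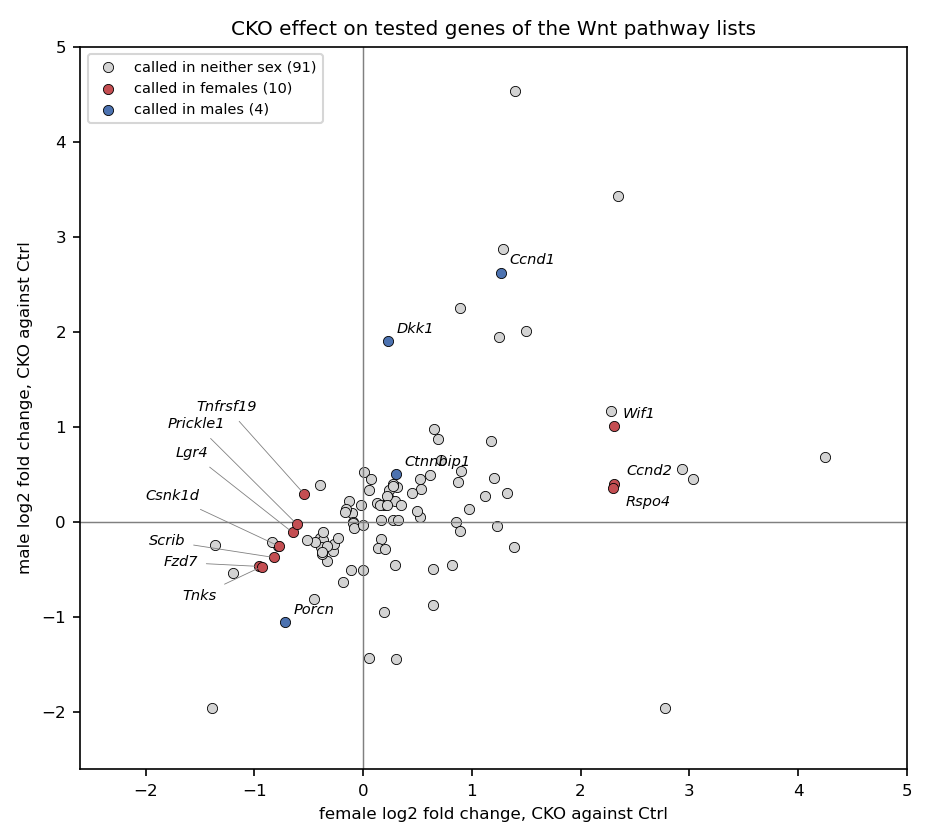
Log2 fold change, CKO against Ctrl, in females (x axis) and males (y axis) for the 105 tested genes of the Wnt pathway lists; red, called in females (10 genes), blue, called in males (4 genes), grey, called in neither (91 genes). Porcn lies at -0.71 and -1.06, Ccnd1 at 1.27 and 2.62 and Fzd7 at -0.95 and -0.47; no gene was called in both sexes.

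The genes whose levels ran most like those of a member were found by the Pearson correlation of log2 CPM over the 12 libraries, which come from 4 groups and 2 sexes, so differences between groups enter these values. With group means removed, the 24 correlations were 0.63 to 0.95. The genes were picked for high correlation in these same libraries, which by itself raises both sets of values. No values of unpicked genes were set beside them. Nearest to Porcn were Tgfa (0.993), a growth factor, Gab2 (0.987) and Efs (0.985), both adaptor proteins of receptor signalling. With group means removed these 3 were 0.73, 0.82 and 0.63. For Axin2 they were Hspg2 (0.991), Edn3 (0.988) and Ptprj (0.985), and for Wnt3 Pmaip1 (0.994), Ly6g6e (0.994) and Serpini1 (0.993). Wnt5a ran with Cpne2 (0.981), Bmp2 (0.979) and Lyn (0.979), of which Bmp2 is on the pregranulosa marker list. Wnt6 ran with Prss35 (0.943), Rnf215 (0.933) and Amhr2 (0.926), the receptor of the Sertoli cell hormone Amh. Tcf7 ran with Kdm1b (0.950), Tpbg (0.950) and Ccnjl (0.937), which were 0.925, 0.951 and 0.943 with group means removed. Sp5 ran with Kcp (0.954), Zfp385a (0.950) and Katnal1 (0.941), and Lef1 with Neurl1a (0.900), Herpud2 (0.874) and Wasf2 (0.874).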

How the data were processed

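For the 12 libraries 1 table of whole-number counts, by Ensembl gene, was deposited by the authors and used unchanged. Per the labels' protocols, amplified cDNA was made from sorted germ cells of each embryo with a chemistry that does not mark strand. Tools named in the submitters' processing notes are featureCounts, TopHat2 2.0.11, Trimmomatic 0.33 and CASAVA 1.8.4, with the builds NCBIM37 and mm9. How reads matching several places were counted is not given in the sources used here. Identifiers were matched to symbols with GENCODE M21 on GRCm38, which named 32919 of 37991 rows and 99.5% of counts, and exon lengths and overlaps came from the same annotation. Coordinates are given only for RefSeq promoter windows.

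Genes were kept with filterByExpr (minimum count 10, minimum total 15) on the 4 groups, scaled by TMM (factors 0.926 to 1.11) and fitted in edgeR 4.0.16 with limma 3.58.1 and R 4.3.3, by the robust quasi-likelihood test on all 12 libraries with 8 residual degrees of freedom. The contrasts compared CKO with Ctrl in females and in males, took the mean and the difference of both, and female against male Ctrl. Benjamini-Hochberg adjustment covered the 16708 genes tested, with calls made under 0.05. Standard errors came from the F statistic, and intervals are 95%. Each embryo was a replicate. The p-values set each difference against a spread between embryos that was estimated over the 4 groups together and moderated across genes. Litters are unknown, so a spread between litters was not separated. The procedure was tested on simulated data. Library depth, 24.2 to 34.2 counts per CPM, limits the low ligands, and floors of 3 counts cover counting error only.

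The members, the 9 pathway lists, the 9 marker lists and the rule for named genes were chosen with earlier results of these data known. Named were the members, up to 4 called genes with the smallest adjusted p per list and contrast, the Wnt genes beside a member, Ctnnb1, Wls, Ezh2 and the 3 genes correlating best with each tested member. Marker genes and antisense neighbours were named for those roles. Marker lists not described in the results are those of Leydig cells, macrophages and red blood cells, whose summed CPM ran from 1.16 to 7.01, 0.522 to 5.16 and 0.0921 to 17.9. Alternatives were median-of-ratios factors, library size only, no filter, DESeq2 1.42.0, a block for the replicate number, a fit on only the groups compared, and each library left out.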

Additional observations from a re-analysis of the deposited data

Results flagged for a closer look

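In groups of 4 embryos, here the male controls, a library was singled out where its gap to the nearest other was over Dixon's critical share of the group's range, a test that by chance marks about 1 in 20 groups. It was applied to 56 genes. Porcn stood at 19 CPM in male Ctrl 2, with the nearest control at 10.6 CPM. The same embryo was highest for Wnt5b, at 1.9 CPM beside 1.23 CPM, and for Dkk2, at 0.124 CPM where the other 3 controls were at 0. Wnt10a stood at 0.0292 CPM in male Ctrl 1, which is 1 count, and at 0 in the other 3.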

How the results depend on the processing

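The replicate numbers were checked for pairing. Same-numbered CKO and Ctrl libraries had deviations that correlated by 0.093 and -0.021 in females and -0.026, 0.027 and 0.015 in males. In males these values gave no sign of pairing. In females the check cannot exclude it, because the deviations of the 2 CKO libraries are mirror images of each other. The submitters' column names also number the female libraries otherwise than the replicate numbers used here. With the replicate number as a block, 1054 genes were called in females, 105 in males, 2311 over both sexes, 0 for the difference and 6142 between the sexes. The count of all genes called in females (1198) was 1989 in DESeq2 and 317 to 691 with a library left out; that in males (284) was 990 in DESeq2, 63 with only the groups compared and 36 to 502 with a library left out; that over both sexes (2460) was 1363 to 2803 with a library left out. For the difference between the sexes, 2 genes were called without the filter, 61 in DESeq2 and 0 to 3 with a library left out. The count of members called in males (1, Porcn) was 0 with median-of-ratios factors, library size only, no filter, the replicate block or only the groups compared, and 0 to 1 with a library left out. In females it was 1, Porcn, with only the groups compared (edgeR adjusted p = 0.0262). Library size only moved the median of all genes by 0.11 in females and 0.10 between the sexes, so that higher and lower calls were 652 and 357 in place of 503 and 695 in females, 1505 and 782 in place of 1145 and 1315 over both sexes, and 4062 and 2592 in place of 3358 and 3246 between the sexes. Small uncalled values changed sign: Axin2 over both sexes to 0.0131 with median-of-ratios factors, 0.0133 without the filter, 0.0173 with the block, 0.0123 in DESeq2 and 0.0672 with library size only, and in females to 0.00887 with library size only; Lef1 over both sexes to 0.00517 and the Tcf7 difference to 0.066 with library size only; Wnt5a in males to -0.0836 and Ctnnb1 between the sexes to -0.0627 with the block. With a library left out, ranges crossing 0 were -0.0721 to 0.33 for Lef1 and -0.14 to 0.0105 for Axin2 in females, -0.26 to 0.52 for Wnt6, -0.17 to 0.03 for Lef1 and -0.068 to 0.0579 for Axin2 over both sexes, -0.0561 to 0.33 for Wnt3 and -0.13 to 0.10 for Tcf7 in the difference, -0.0597 to 0.0908 for Ctnnb1 between the sexes, and -0.25 to 0.66 for Wnt5a, -0.0318 to 0.20 for Axin2 and -0.70 to 0.28 for Wls in males. The male Dkk1 call was lost with the replicate block (edgeR adjusted p = 0.0619). The cause of these changes was not tested. Of 1555 alternative values of single named genes 1352 kept direction and side of the threshold, 156 lost the call, 6 gained it and 41 changed sign. Depth limits the low ligands, and 2 to 4 embryos per group limit small effects.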
